A study of Mus musculus with 4 samples.

Results

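The signalling genes of the interleukin 6 (IL-6) cytokine family and of its transcription factor STAT3 were examined by ATAC-seq, which maps open chromatin by the sites where the Tn5 transposase can cut and tag DNA. The 10 genes were Il6ra, Il6st, Osmr, Lifr, Jak1, Stat3, Socs1, Socs3, Pim1 and Bcl3, taken as a list. Peaks of the 4 libraries were merged wherever they shared at least 1 bp, and a merged region belonged to a gene when it overlapped the gene body or the 25 kb on either side. By this rule 102 of 82641 merged regions were kept, and none was shared by a pair of the genes. Keratinocytes, the main cells of the epidermis, came from female C57BL/6 mice 8 to 12 weeks old, whose shaved abdomen had received cream with 5% imiquimod (Aldara) daily for 8 days. The comparison was between 2 wild-type (WT) and 2 Mapk8-KO libraries, to ask how accessibility of these genes differs when the kinase JNK1, encoded by Mapk8, is missing. Per the study's methods, Mapk8 fl/fl mice carried a Cre driven by the keratin 14 promoter, so the deletion was in keratin 14 expressing epithelium, and the cells were sorted as EpCam+CD49f hi. All mice were treated, so no untreated skin enters the comparison. The labels do not say whether a library held cells of 1 mouse or of several. The SD given below is the spread between libraries. The standard errors (SE) and intervals of log2 differences come from limma, with a variance trend fitted over all regions. They therefore do not measure the spread between libraries at a single region.

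Cytokines of this family bind a specific receptor chain (IL6RA, OSMR or LIFR) that signals through the shared chain gp130, encoded by Il6st. The bound kinase JAK1 then phosphorylates STAT3, which enters the nucleus, binds the letters TTCNNNGAA and raises transcription of target genes, among them its own inhibitors Socs1 and Socs3. In skin this pathway is known for its part in wound repair and psoriasis, and oncostatin M is a strong activator of keratinocytes. JNK1 phosphorylates c-Jun, a subunit of AP-1, which binds the letters TGACTCA.

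The sequences shown next are some of those on which the comparison turned, and the Socs3 promoter window, which carried the full STAT palindrome. Each runs from 100 bp before to 100 bp after the strongest summit, the position of highest fragment pileup, and is the plus strand of mm10. Capitals mark AP-1 matches (TGACTCA or its reverse complement TGAGTCA) and STAT matches (TTCNNNGAA), searched on both strands. The Osmr window at chr15:6857578-6857778 lies in an intron of Osmr, 17.3 kb downstream of its transcription start site (TSS), and the window at chr15:6850047-6850247 in an intron 24.8 kb downstream. The Jak1 window at chr4:101202739-101202939 lies in an intron of Jak1, 62.4 kb downstream. The Pim1 window at chr17:29490420-29490620 lies 0.2 kb upstream of Pim1 within an intron of the lncRNA gene Gm26885, and the Bcl3 window at chr7:19824210-19824410 lies between genes 1.5 kb upstream of Bcl3. The Socs3 window at chr11:117969191-117969391 lies in an intron of Socs3, next to a start site of the gene.
Osmr intron at 17.3 kb: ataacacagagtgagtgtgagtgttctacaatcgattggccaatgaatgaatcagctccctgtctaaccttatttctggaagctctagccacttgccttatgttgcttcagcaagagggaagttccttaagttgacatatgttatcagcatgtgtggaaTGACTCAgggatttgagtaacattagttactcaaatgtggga
Osmr intron at 24.8 kb: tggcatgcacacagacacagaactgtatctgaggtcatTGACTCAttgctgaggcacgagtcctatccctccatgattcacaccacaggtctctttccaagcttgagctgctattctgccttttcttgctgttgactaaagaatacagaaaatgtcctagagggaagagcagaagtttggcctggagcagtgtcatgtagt
Jak1 intron at 62.4 kb: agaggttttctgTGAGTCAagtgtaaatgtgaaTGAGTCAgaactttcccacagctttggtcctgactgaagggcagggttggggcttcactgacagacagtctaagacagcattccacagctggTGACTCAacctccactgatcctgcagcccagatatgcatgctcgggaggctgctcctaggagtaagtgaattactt
Pim1 promoter: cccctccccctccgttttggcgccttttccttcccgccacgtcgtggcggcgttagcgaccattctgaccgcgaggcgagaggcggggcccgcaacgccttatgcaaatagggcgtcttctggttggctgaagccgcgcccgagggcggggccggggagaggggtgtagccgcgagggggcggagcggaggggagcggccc
Bcl3 upstream region: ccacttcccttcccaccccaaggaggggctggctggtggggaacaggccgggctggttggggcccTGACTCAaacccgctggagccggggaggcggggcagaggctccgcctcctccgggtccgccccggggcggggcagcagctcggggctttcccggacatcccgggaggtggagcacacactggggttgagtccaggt
Socs3 promoter: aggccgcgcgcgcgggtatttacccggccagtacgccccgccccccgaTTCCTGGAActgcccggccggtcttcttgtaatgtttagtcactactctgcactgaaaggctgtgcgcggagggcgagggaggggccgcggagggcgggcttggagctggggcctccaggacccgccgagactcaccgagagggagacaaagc

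The Osmr introns held 1 AP-1 match in each window, the Jak1 intron held 3 and the Bcl3 upstream region 1. The Pim1 window held neither motif. The Socs3 window held the stricter palindrome TTCCNGGAA, a subset of TTCNNNGAA, 48 bp before the summit. Of the 102 member windows, 26 (25.5%) held AP-1, 11 (10.8%) held TTCNNNGAA and 3 (2.94%) held TTCCNGGAA. The same letters stood in 23.7%, 5.75% and 0.870% of all 82641 windows of this length. The other windows with the strict palindrome were 28.2 kb downstream of Socs1, called in WT 1 alone, and 37.9 kb downstream of Il6st, called in Mapk8-KO 1 alone. A match is a run of letters and was not tested as a binding site.

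The libraries differed in depth, and the number of called regions moved with it. The peak lists held 69927 (WT 1), 54856 (WT 2), 69583 (Mapk8-KO 1) and 49856 (Mapk8-KO 2) intervals, and the median fragment pileup at shared summits was 0.694, 1.12 and 0.646 times that of WT 1 in the later 3 libraries. Peaks lay within 2 kb of a TSS for 8 to 10 of 10 keratinocyte markers in every library, against 2 or 3 of 10 leukocyte markers. Among the leukocyte markers, Trac and Cd68 had a peak in every library, and Ptprc, Cd3e and Lyz2 had none. Of the other cell types in skin, 2 of 6 fibroblast, 3 or 4 of 5 endothelial and 3 of 5 melanocyte markers had a peak in each library. Pdgfra, Col1a1, Pecam1, Tek, Pmel, Dct and Mlana had one in every library. Col1a2, Col3a1, Dcn, Lum, Cdh5, Tyr and Tyrp1 had none. Suprabasal markers had peaks at 3 or 4 of 5 and hair follicle markers at 2 to 4 of 5, with summed fold enrichments of 22.2 and 15.4 in WT and 21.5 and 27.2 in Mapk8-KO for the follicle list. The summed fold enrichment of the leukocyte list was 22.1 and 14.6 in WT and 20.1 and 18.5 in Mapk8-KO, of the fibroblast list 13.7 and 15.2 against 14.6 and 12.1, of the endothelial list 29.9 and 27.3 against 32.7 and 22.8, and of the melanocyte list 35.7 and 32.2 against 36.8 and 34.3. The WT and Mapk8-KO values overlapped for these 4 lists and for the follicle and suprabasal lists (suprabasal 24.5 and 24.0 against 25.1 and 22.3). They did not overlap for the keratinocyte list, at 69.2 and 63.9 in WT and 79.8 and 69.5 in Mapk8-KO. The part of cell makeup in the results was not tested. Peak lists do not show the deletion itself: of 4 regions in the Mapk8 gene body, 2 were called in every library and none in the WT libraries alone.

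Each of the 10 genes had accessible regions in every library. Of the 102 regions, 51 were nearest to a TSS of their member gene, among them 1 of 10 at Il6ra and 5 of 20 at Jak1. A further 12 lay within 2 kb of a TSS of other genes only. A region in a gene's window need not act on that gene. WT 1 called 88 of the 102 regions, WT 2 65, Mapk8-KO 1 89 and Mapk8-KO 2 61. In that order these were 86.3%, 63.7%, 87.3% and 59.8%, against 83.8%, 65.2%, 83.2% and 59.1% of all merged regions. The mean was 76.5 ± 16.3 (SD, n = 2) in WT and 75 ± 19.8 (SD, n = 2) in Mapk8-KO. The groups overlapped, and the difference of 1.5 regions was far smaller than the spread between libraries of 1 genotype. Jak1 had the most regions, 20, and Pim1 the fewest, 4. All 4 libraries called 51 of the 102 regions, or 50% against 48.6% of all merged regions. A further 12 (11.8%, against 7.91% of all merged regions) were called in WT 1 and Mapk8-KO 1 only, the pair of greater depth. None was called in WT 2 and Mapk8-KO 2 only, against 0.15% of all merged regions.

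**Figure D1:**
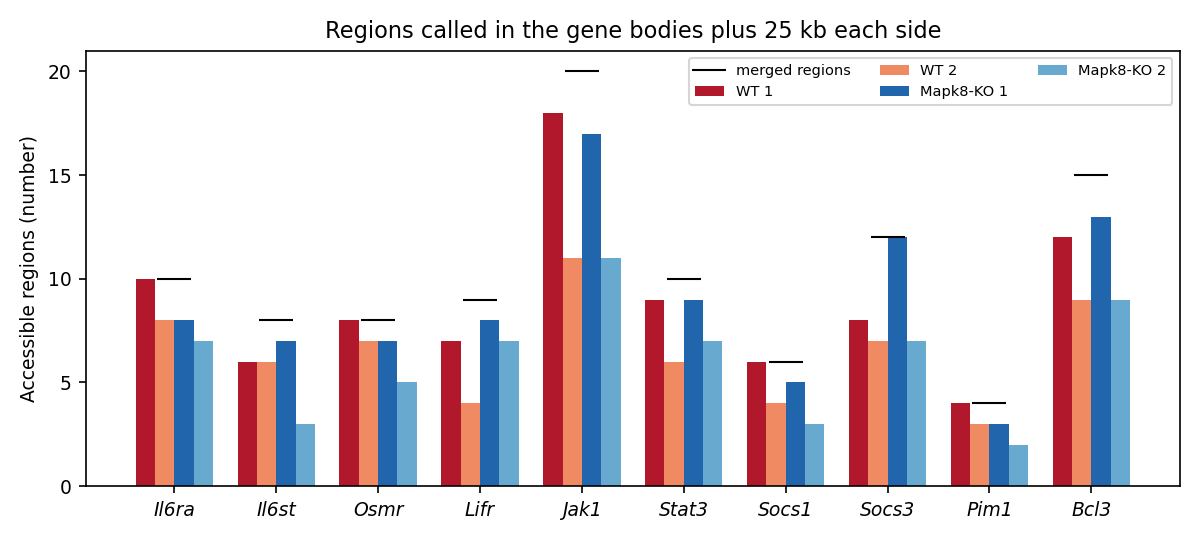
Number of accessible regions called in each library (bars) in the gene body plus 25 kb each side of the 10 genes, with the number of merged regions as a black line. The deeper libraries WT 1 and Mapk8-KO 1 called 88 and 89 regions in all, WT 2 and Mapk8-KO 2 65 and 61.

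Few member regions were called in 1 genotype alone. Both WT libraries and no Mapk8-KO library called 1 region, which is 14.6 kb upstream of Osmr between genes (2.17% of all merged regions met this rule). Its pileup was 17 fragments in WT 1 and 14 in WT 2, and its fold enrichment was at percentiles 32.3 and 27.4 of those peak lists. Both Mapk8-KO libraries and no WT library called 3 regions (1.65% of all merged regions), in introns of Stat3, Lifr and, in the Socs3 window, Pgs1. The Stat3 intron region, 39.9 kb downstream of the TSS with 1 AP-1 match, had pileups of 27 and 23 fragments. The Lifr intron region, 18.7 kb downstream of its nearest TSS, had 28 and 17 fragments, and the Pgs1 intron region, 25.3 kb upstream of Socs3, had 18 and 17. These 4 regions were in the lower part of their lists, apart from the Lifr region at percentiles 61.3 and 45.2.

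Strength was compared in the 51 regions called in all 4 libraries. Each library's fold enrichments over local background were turned into percentiles, and a region was ranked higher in a genotype when both its percentiles there exceeded both of the other genotype's by 10 points or more. None of the 51 regions was ranked higher in WT, against 4.65% of the 40159 regions called in all 4 libraries, and 5 were ranked higher in Mapk8-KO, against 4.07%. The 5 were the promoters of Osmr and Pim1, an intron of Il6ra and a pair of regions in the Bcl3 window. No member region was past limma at an adjusted p under 0.05, where 0.11% of regions were higher and 0.496% lower in Mapk8-KO. At an unadjusted p under 0.05 there were 7 of 51 member regions, 13.7%, against 11.3% of all regions tested. Over the 51 regions the median log2 difference, Mapk8-KO minus WT, was 0.07, and 31 were above 0 (60.8%). Over all 40159 regions the median was 0.05 and 57.4% were above 0, so the list as a whole was close to its background.

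The differences between genotypes moved with 1 library, Mapk8-KO 2. The median percentile of the 51 regions was 29.0 and 32.4 in the WT libraries against 33.1 (Mapk8-KO 1) and 43.0 (Mapk8-KO 2). The mean percentile of all promoter regions was also highest in Mapk8-KO 2, at 55.8 against 50.8, 52.5 and 52.3 in WT 1, WT 2 and Mapk8-KO 1. Without Mapk8-KO 2 the median log2 difference of the members was -0.02, against 0.03 over all regions tested. Without Mapk8-KO 1, which left Mapk8-KO 2 as the only library of its genotype, it was 0.25, against 0.09. It was 0.06 without WT 1 and 0.07 without WT 2, against 0.02 and 0.06. Values follow for the 7 member regions with an unadjusted p under 0.05 in limma on all libraries. Each pair is without Mapk8-KO 2, then without Mapk8-KO 1. The Osmr intron at 17.3 kb had -0.51 and -0.94, and that at 24.8 kb -0.07 and -0.69. The Jak1 intron at 62.4 kb had -0.09 and -0.58, and an intron of the neighbouring Raver2 -0.17 and -0.68. The promoter values were 0.37 and 0.50 for Osmr, 0.46 and 1.07 for Pim1, and 0.26 and 0.80 for Bcl3. In these fits the lone library is assumed to vary as the WT pair does.

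Among the receptors, Osmr, the oncostatin M receptor, had the widest range of differences. Its promoter region, which reaches into the 5′ UTR, had pileups of 57 and 39 fragments in WT and 79 and 49 in Mapk8-KO. Scaled to the depth of WT 1 these were 57, 56.2, 70.7 and 75.8 fragments, so both Mapk8-KO libraries were above both WT libraries. In bulk libraries, an opening in more cells and a wider opening per cell cannot be told apart. The log2 difference was 0.42 ± 0.21 (SE), with an adjusted p of 0.439 in limma. The intron region at 17.3 kb, with its AP-1 match, was the other way round. Its pileups were 57 and 43 in WT and 45 and 19 in Mapk8-KO, or 57, 61.9, 40.3 and 29.4 fragments at the depth of WT 1, and the groups did not overlap. The log2 difference of -0.74 ± 0.25 (SE, 95% interval -1.23 to -0.25) was the lowest of the 51 member regions, with an adjusted p of 0.156. The exact Poisson 95% interval of the 19 fragments in Mapk8-KO 2 was 11.4 to 29.7, which covers counting error only. The intron region at 24.8 kb was among the strongest 5 of the list, at percentiles 99.2, 98.5, 98.5 and 87.6. Its pileup at WT 1 depth was 100 and 100.8 in WT against 92.2 (Mapk8-KO 1) and 58.8 (Mapk8-KO 2), so most of its log2 difference of -0.40 ± 0.19 (SE, adjusted p 0.414 in limma) lay in Mapk8-KO 2. The third Osmr region with AP-1, an intron 2.7 kb downstream of the TSS, overlapped between the groups, with 66 and 46.1 fragments in WT and 53.7 and 58.8 in Mapk8-KO (log2 difference 0.08 ± 0.23 SE, adjusted p 0.939). On log2 fold enrichment in place of pileup, the differences were -0.35 (adjusted p 0.821) at 17.3 kb and -0.21 (adjusted p 0.829) at 24.8 kb.

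**Figure D2:**
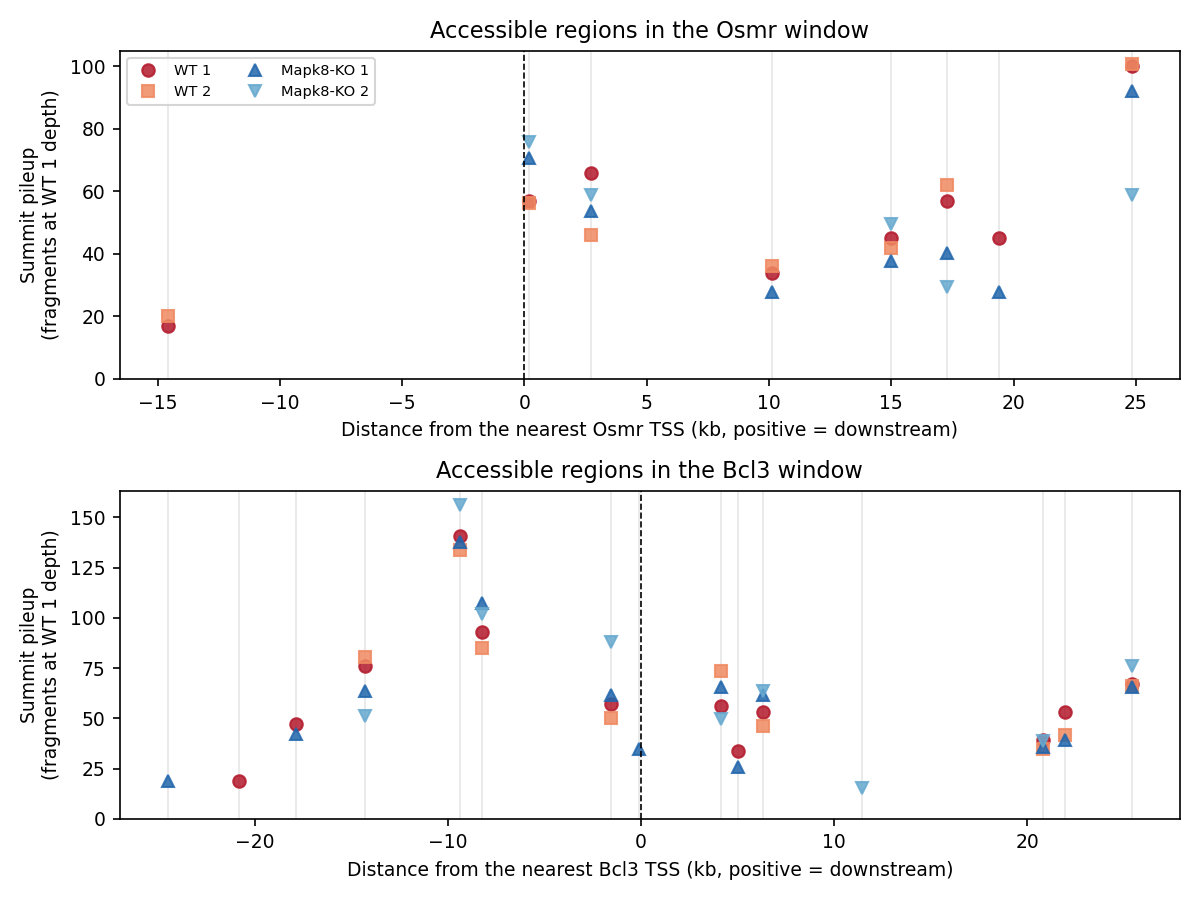
Summit pileup of each called region, in fragments scaled to the depth of WT 1, against distance from the nearest TSS of Osmr (top) and Bcl3 (bottom) in kb, one symbol per library. At Osmr both Mapk8-KO libraries were above WT at the promoter (70.7 and 75.8 against 57 and 56.2) and below WT at 17.3 kb (40.3 and 29.4 against 57 and 61.9).

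Il6ra, the IL-6 receptor chain, had 10 regions, of which WT 1 called 10, WT 2 8, Mapk8-KO 1 8 and Mapk8-KO 2 7. Its promoter region, with 1 AP-1 match, stood at percentiles 27.1, 27.7, 27.5 and 31.0, and the log2 difference was 0.03 ± 0.26 (SE, adjusted p 0.984 in limma, 95% interval -0.48 to 0.53). An intron region 32.6 kb downstream of the TSS (chr3:89880106-89880733) was at percentiles 55.7 and 56.2 in WT and 73.0 and 73.2 in Mapk8-KO. The gap between the groups was 16.8 points. In pileup the log2 difference was 0.29 ± 0.25 (SE) and the adjusted p 0.712. The strongest Il6ra region was between genes past the 3′ end, 51.8 kb from the TSS, with 2 AP-1 matches and percentiles of 84.7, 81.7, 85.9 and 80.4, at which the groups overlapped.

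Il6st, which encodes gp130, had 8 regions, with 6 called in each WT library, 7 in Mapk8-KO 1 and 3 in Mapk8-KO 2. Its promoter was at percentiles 38.3 and 19.5 in WT and 33.1 and 60.0 in Mapk8-KO, and the groups overlapped (log2 difference 0.23 ± 0.18 SE, adjusted p 0.665 in limma). Of its other regions, 3 lay in introns of the neighbouring Il31ra, another receptor gene of the family.

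Lifr, the receptor for leukemia inhibitory factor, had 9 regions, 7 and 4 called in WT and 8 and 7 in Mapk8-KO. Its promoter was at percentiles 58.2 and 73.1 in WT and 64.3 and 52.9 in Mapk8-KO, with a log2 difference of 0.07 ± 0.20 (SE) and an adjusted p of 0.94 in limma. The strongest Lifr region (chr15:7075228-7075692), upstream of the gene body and 54.2 kb from the nearest TSS, held 1 STAT match. Its pileup at WT 1 depth was 50 and 43.2 in WT and 55.5 and 63.5 in Mapk8-KO, and its percentiles were 84.8, 81.5, 91.8 and 89.8. Both Mapk8-KO libraries were above both WT libraries, by less than the 10 points of the rank rule, and the adjusted p of the log2 difference of 0.40 ± 0.23 (SE) was 0.52. On log2 fold enrichment the difference was 0.17 (adjusted p 0.877).

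Jak1, the kinase bound to these receptors, had the largest number of regions, mostly intronic, and 7 of the 20 held AP-1. WT 1 called 18, WT 2 11, Mapk8-KO 1 17 and Mapk8-KO 2 11. Its promoter was among the strongest 5 regions of the list, at percentiles 81.6, 79.8, 74.9 and 83.3, with a log2 difference of -0.06 ± 0.19 (SE, adjusted p 0.949 in limma, 95% interval -0.43 to 0.32). The intron region at 62.4 kb, with 3 AP-1 matches, had pileups of 140, 100, 144 and 58 fragments. At the depth of WT 1 these were 140 and 144 in WT against 129 (Mapk8-KO 1) and 89.8 (Mapk8-KO 2), so Mapk8-KO 2 was far below the other 3 (log2 difference -0.35 ± 0.18 SE, adjusted p 0.436, or -0.09 on log2 fold enrichment with an adjusted p of 0.957). A region in an intron of the neighbouring Raver2, 123.3 kb from the Jak1 TSS with 2 AP-1 matches, was similar, with 88 and 100.8 fragments in WT and 80.6 and 55.7 in Mapk8-KO at WT 1 depth. Its log2 difference was -0.44 ± 0.20 (SE) and its adjusted p 0.359. In fold enrichment the log2 difference was -0.04 (adjusted p 0.985) and the groups overlapped, with percentiles of 58.7 and 75.1 in WT and 60.6 and 67.7 in Mapk8-KO.

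Stat3 itself, the transcription factor of the pathway, had a strong promoter that did not separate the genotypes. Its percentiles were 78.3 and 68.2 in WT and 60.3 and 84.1 in Mapk8-KO, and the 2 Mapk8-KO libraries were the lowest and the highest of the 4. The log2 difference was 0.21 ± 0.21 (SE, 95% interval -0.20 to 0.63, adjusted p 0.756 in limma). Of its 10 regions 7 were in introns of Stat3 or at its TSS, 1 was the promoter of the neighbouring Stat5a and 2 were in Cavin1.

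The feedback inhibitors Socs1 and Socs3 were as little separated. Socs1 had 6 regions, and its promoter had pileups of 78, 51, 81 and 59 fragments. At WT 1 depth these were 78 and 73.4 in WT and 72.5 and 91.3 in Mapk8-KO, which overlap (log2 difference 0.15 ± 0.20 SE, adjusted p 0.82 in limma). Socs3 had 12 regions, all of which were called in Mapk8-KO 1, against 8 in WT 1 and 7 in each of WT 2 and Mapk8-KO 2. The Socs3 promoter, with the STAT palindrome printed above, had pileups of 55, 48, 61 and 52 fragments. Its percentiles were 25.3 and 45.0 in WT and 28.3 and 53.7 in Mapk8-KO, where the shallower library of each genotype was higher than the deeper one. Its log2 difference was 0.15 ± 0.21 (SE) and the adjusted p 0.841.

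Pim1, a serine/threonine kinase gene that STAT3 induces, had the highest log2 difference of the 51 regions, at its promoter. The pileup was 33 fragments in WT 1 (exact Poisson 95% interval 22.7 to 46.3), 27 in WT 2 (17.8 to 39.3), 53 in Mapk8-KO 1 (39.7 to 69.3) and 46 in Mapk8-KO 2 (33.7 to 61.4). At WT 1 depth these were 33, 38.9, 47.5 and 71.2 fragments, and fold enrichment was 4.74 and 5.45 in WT and 7.17 and 7.98 in Mapk8-KO. Both Mapk8-KO libraries were above both WT libraries on either scale. The percentiles of 5.63 and 12.0 in WT and 27.3 and 48.0 in Mapk8-KO gave a gap of 15.3 points. The log2 difference was 0.75 ± 0.25 (SE, 95% interval 0.26 to 1.23), or 1.68 times, but the adjusted p of 0.151 in limma did not pass. Without Mapk8-KO 2 it was 0.46, with an adjusted p of 0.873, and without Mapk8-KO 1 it was 1.07, with an adjusted p of 0.0104. A second region within 2 kb of a Pim1 TSS, in an intron, was at or below percentile 1.70 in every library, and its log2 difference was -0.12 ± 0.32 (SE, adjusted p 0.924).

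Bcl3, which encodes an IκB-like partner of NF-κB, had 15 regions. At 3 of those named here both Mapk8-KO libraries were above both WT libraries. The upstream region at 1.5 kb, with 1 AP-1 match, had pileups of 57, 35, 69 and 57 fragments, or 57 and 50.4 in WT and 61.8 and 88.2 in Mapk8-KO at WT 1 depth. Both Mapk8-KO libraries were higher, Mapk8-KO 1 by little (log2 difference 0.51 ± 0.21 SE, adjusted p 0.32 in limma). A region in an intron of Bcl3, 6.3 kb downstream of the TSS (chr7:19816009-19816659), stood at percentiles 11.8 and 11.4 in WT and 21.9 and 42.6 in Mapk8-KO, and held 1 STAT match. It is also within 2 kb of a TSS of the lncRNA gene Gm16174. The region 8.2 kb upstream (chr7:19830793-19831296), with 1 AP-1 match, stood at percentiles 20.2 and 20.8 in WT and 30.8 and 38.6 in Mapk8-KO. For these regions the gaps between groups were 10.1 and 10.02 points, so both only just met the rule of 10 points, and limma gave adjusted p values of 0.521 and 0.583. The short region at the Bcl3 TSS itself was called in Mapk8-KO 1 alone, with 39 fragments. In the other direction, a region 14.3 kb upstream with 1 AP-1 match had 76 and 80.6 fragments in WT and 63.6 and 51.1 in Mapk8-KO at WT 1 depth (log2 difference -0.41 ± 0.21 SE, adjusted p 0.445).

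**Figure D3:**
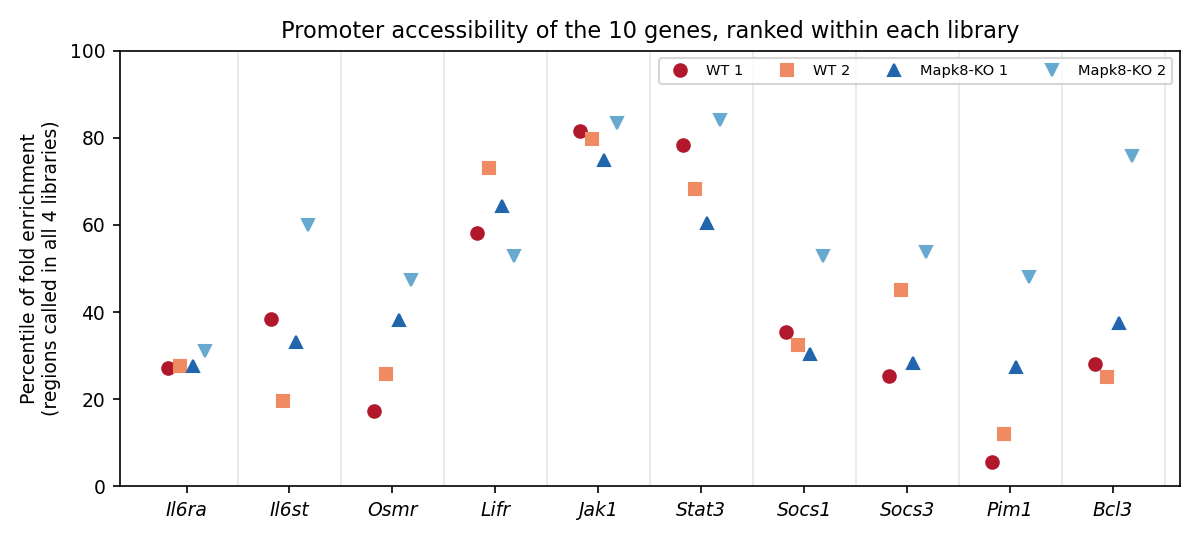
Percentile of fold enrichment, among the 40159 regions called in all 4 libraries, of the promoter region of each gene (the strongest region within 2 kb of its TSS), one symbol per library. Both Mapk8-KO libraries are above both WT libraries at Osmr, Pim1 and Bcl3, and Mapk8-KO 2 is the highest library at 9 of the 10 genes, Lifr being the exception.

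Seen over the promoters, Mapk8-KO 2 had the highest percentile of the 4 libraries at 9 of the 10 genes. Among the 11 regions within 2 kb of a member's own TSS and called in all 4 libraries, 9 had a log2 difference above 0 and the median was 0.15. Over all 14530 promoter regions called in all 4 libraries the median was 0.14 and 72.6% were above 0, so the members were near the level of promoters at large. The rank rule called 4.39% of all promoter regions higher in Mapk8-KO and 3.89% of other regions. When regions were ranked within promoters and within other regions separately, 4 member regions were ranked higher in Mapk8-KO in place of 5.

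Regions with and without an AP-1 match were also described apart. Of the 7 member regions with an unadjusted p under 0.05, the 4 that were lower in Mapk8-KO (the Osmr introns, the Jak1 intron and the Raver2 intron) all held AP-1, and the 3 that were higher were the promoters of Osmr, Pim1 and Bcl3, of which 1 held it. Outside promoters, an unadjusted p under 0.05 was thus found in 4 of 10 member regions with AP-1 and in 0 of 23 without, against 14.3% of 8353 and 10.9% of 17276 over all regions. Among members outside promoters, the median log2 difference was -0.23 in the 10 regions with AP-1, 4 of them above 0, and 0.07 in the 23 without. Over all regions outside promoters the medians were -0.10 with AP-1 (8353 regions, 36.6% above 0) and 0.03 without (17276 regions, 54.7% above 0). The order of the medians was the same among the members and over all regions, in few member regions. These differences moved with Mapk8-KO 2. The 4 lower member regions had log2 differences of -0.07 to -0.51 without Mapk8-KO 2, and of -0.58 to -0.94 without Mapk8-KO 1. Among all regions outside promoters with AP-1, Mapk8-KO 2 had the lowest median percentile, at 50.5 against 58.1 to 60.4 elsewhere. Without AP-1 the libraries ranged from 42.2 to 44.2. In the 10 members with AP-1, Mapk8-KO 2 was at 48.4, above WT 1 at 46.9.

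**Figure D4:**
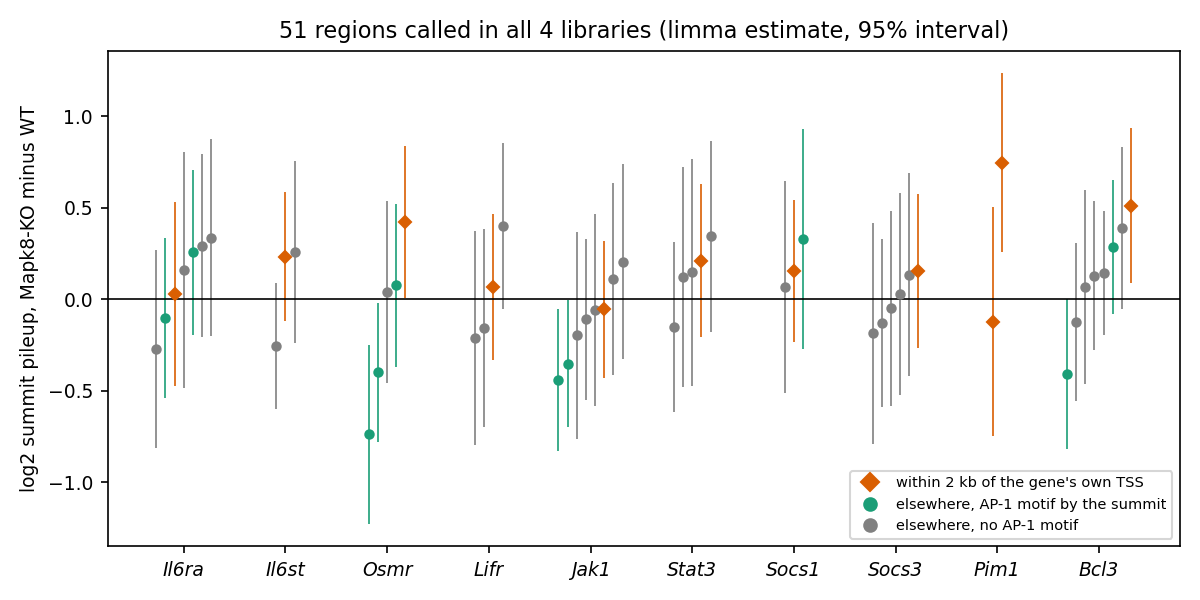
Log2 difference in summit pileup, Mapk8-KO minus WT, of the 51 member regions called in all 4 libraries, by gene, with 95% intervals from limma. Diamonds mark regions within 2 kb of the gene's own TSS whatever their motif, green points other regions with an AP-1 match and grey points other regions without. The Osmr intron at 17.3 kb is lowest (-0.74) and the Pim1 promoter highest (0.75).

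The rest of the pathway was counted by the same rule in a list of 38 further genes (ligands, other receptors, kinases and STATs, inhibitors and target genes). Their windows held 250 regions beside those already counted, of which 144 were called in all 4 libraries. The rank rule called 2 of them higher in WT and 4 higher in Mapk8-KO, where it called 4.65% and 4.07% of all regions. Limma called 1, which was lower in Mapk8-KO (0.496% of all regions), with a median log2 difference of 0.06 over the 144. The 2 higher in WT were a region upstream of Il6, the ligand that names the family, at percentiles 42.0 and 55.9 in WT and 24.9 and 10.6 in Mapk8-KO, and the Rnaseh2a promoter in the window of Junb. The 4 higher in Mapk8-KO included an intron of Jak2 at percentiles 70.8 and 62.3 in WT and 83.0 and 92.6 in Mapk8-KO. Another was the promoter of Ppp1ca, in the window of the ligand gene Clcf1, at 72.0 and 73.6 against 85.3 and 95.1.

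The region past limma lay downstream of Hif1a, a hypoxia factor gene that STAT3 can induce, and held 1 AP-1 match. Its pileups were 56 and 50 fragments in WT and 46 and 16 in Mapk8-KO, and the log2 difference was -0.94 ± 0.25 (SE) with an adjusted p of 0.0402. The size of this difference did not rest on Mapk8-KO 2 alone. The region had a log2 difference of -0.57 without Mapk8-KO 2 and of -0.75 without WT 2. Without WT 1 the region had -1.16, and without Mapk8-KO 1 -1.28. Of 10 other settings, 2 kept it past the threshold.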

How the data were processed

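The authors, per the methods, aligned read pairs from sorted keratinocytes to mm10 with Bowtie2 and discarded multiply or poorly mapped ones. Peaks were called with MACS2 on whole fragments, and the parameters listed name no control library. The authors deposited 1 list per library. No shift for the Tn5 insertion site is stated. The deposited lists give each peak's fold enrichment (a ratio of summit pileup to local background), −log10 p and −log10 q values, a score derived from q, and the summit offset. The highest q in a deposited list was 0.0097. All peak ends lay within the GRCm38 chromosomes.

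The member genes, pathway, marker and motif lists were chosen with earlier results of these data known. Regions, windows and ranks were built as stated with the results, using GENCODE M21 basic TSSs. The genes named were all 10 members, each by its promoter region (the strongest within 2 kb of a TSS). The regions named were those called in 1 genotype alone, ranked higher, past limma, the 5 strongest, the 3 largest log2 differences in each direction, and those with the strict STAT motif. The Stat5a, Il31ra and Raver2 overlaps, the Osmr intron at 2.7 kb, the second Pim1 region and the Bcl3 TSS region were described after their values were seen.

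The lists hold no read counts per region, so the study's DESeq2 test was not run. Summit pileups, in fragments, were solved from fold and −log10 p. At least 99.996% of peaks gave a whole number to within 0.05. Log2 pileup, centred on each library's median, was tested with limma 3.58.1 (variance trend, Benjamini-Hochberg over 40159 regions, adjusted p under 0.05). In simulated data 134 of 200 regions changed by 1.5 on the log2 scale were recovered, with 6 false calls. With 2 libraries a group, the smallest exact permutation p is 0.333, so no such test was made. Total reads per library were not used here. Relative depth was the median pileup ratio to WT 1. Alternatives were stricter, equal-length or peaks covering 50% of a region, other windows, ranks and gaps, other centring, GC classes, the replicate block and leaving out each library. Across the 40159 regions, same-numbered libraries did not deviate together (r = 0.039), so replicate numbers were not taken as pairs. Depth did go with the number: in WT and Mapk8-KO it was 1 and 1.12 for replicate 1, and 0.694 and 0.646 for replicate 2. Results at 2 of the further pathway genes are not reported here by name.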

Additional observations from a re-analysis of the deposited data

How the results depend on the processing

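With 2 libraries a genotype, and depths that differ between them, small differences were not detectable. No member region was past limma in any refit that kept all 4 libraries, or with other peak thresholds and windows. Effect sizes with 1 library left out are given with the results. Calls over all regions numbered 243 (81.9% lower in Mapk8-KO), 386 with the replicate block, 83 (94.0% lower) when libraries were centred on the median ratio, an alternative chosen after seeing the data like the ranking within promoters, 77 with quantile normalization (92.2% lower), 67 at a pileup of at least 20, 36 within GC classes, and 0 on log2 fold or without the variance trend, where 2731 and 3987 had an unadjusted p under 0.05. They numbered 51 without WT replicate 1, 10 without WT replicate 2 (20% lower in Mapk8-KO), 1719 without Mapk8-KO replicate 1 and 30 without Mapk8-KO replicate 2.

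The replicate block left 0 member regions ranked higher in WT, 5 in Mapk8-KO and 0 past limma, with a median log2 difference of 0.07. Regions called per library, WT minus Mapk8-KO, were 1.5, but -1.5 with lists of equal length and -1 with a 10 kb window. WT-only regions were 1, but 2 with peaks covering 50% of a region and 0 with a 10 kb window. Mapk8-KO-only regions were 3, but 1 for regions nearest to a member TSS. Regions ranked higher in WT were 0, but 1 with a 50 kb window, by −log10 p and by pileup. Those ranked higher in Mapk8-KO were 5, but 2 with peaks covering 50%, 3 nearest to a member TSS, 3 by pileup and 0 at a gap of 20 points. Leaving out each library gave -12.5 to 15.5 for the difference in calls, 1 to 12 for WT-only, 4 to 10 for Mapk8-KO-only, 2 to 6 ranked higher in WT, 6 to 16 in Mapk8-KO, 0 to 6 past limma, and medians of -0.019 to 0.25. With 1 library left in a group the rank rule is looser: 10.1% to 15.4% of all regions then ranked higher in WT and 10.05% to 16.02% in Mapk8-KO.

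Of 20 named regions tested, 13 kept their direction under all their alternatives. The others reversed at least once: Socs1 promoter (-6.5e-05 within GC classes), Il6ra promoter (-0.13 within GC classes, -0.018 at a pileup of at least 20, -0.021 by median ratio), Il6ra past the 3′ end (0.0093 on log2 fold) and Lifr promoter (-0.10 on log2 fold, -0.12 within GC classes). Without 1 library the range was -0.14 to 0.60 for the Stat3 promoter, -0.010 to 0.35 for Socs1, -0.12 to 0.46 for Socs3, -0.14 to 0.18 for Il6ra, -0.022 to 0.17 for Lifr and -0.19 to 0.064 for Jak1. The causes were not tested.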

Other observations

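In the windows of the 38 further pathway genes, 3 regions were called in both WT libraries alone and 7 in both Mapk8-KO libraries alone, of 250. Over all merged regions the shares were 2.17% and 1.65%. The WT regions lay upstream of Tyk2 (pileups of 34 and 23 fragments), past the 3′ end of Icam1 (41 and 29) and in the window of Il27ra (22 and 14). The Mapk8-KO regions included one at Cebpd, the gene of an acute-phase transcription factor, 592 bp from its TSS with 33 and 27 fragments. A pair lay in the window of Junb, an AP-1 subunit gene, with 57 and 31 fragments near Hook2 and 25 and 18 near Gm49661. None of these 10 regions held an AP-1 match, and 1, in the window of Socs2, held a STAT match. Over all merged regions, 643 of 1796 called in both WT libraries alone held AP-1, and 99 of 1367 called in both Mapk8-KO libraries alone. A STAT match stood in 5.75% of all merged regions. They were tested by no fit, since a region needs a value in every library.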
